A study of Oryza sativa Japonica Group with 12 samples.

Results

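Cytokinin metabolism and signalling genes of rice (Oryza sativa ssp. japonica) were described in 3 F1 hybrids and their 3 parents. The genes were chosen by name: those whose symbol or synonym in the RefSeq gene table reads CKX, LOGL, IPT, RR, HK or AHP followed by a number, and LOG. In all 42 genes matched and 38 of them had a probe set of their own, of 23837 genes with such a probe set. The response regulators RR7, RR10 and RR27 had no probe set of their own in the platform annotation, RR42 only a probe set listed for several genes, and no gene matched IPT. Among the 38 measured genes were 7 cytokinin oxidase/dehydrogenases (CKX), 10 cytokinin-activating enzymes (LOG and LOGL), 4 histidine kinases (HK), 2 phosphotransfer proteins (AHP), 8 type-A response regulators, 6 type-B response regulators and 1 type-C response regulator, the types being read from the regulators' numbers.

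RNA of whole greenhouse-grown plants, taken when they were tillering, was read on 12 Affymetrix arrays, 2 a line. The hybrids, named ‘CH7/8’, ‘CH7/9’ and also ‘CH8/9’ after their parents, are F1 plants of crosses among the temperate japonica varieties ‘Shinseonchalbyeo’ (‘CH9’), ‘Sanghaehyangheolua’ (‘CH8’) and ‘Aranghyangchalbyeo’ (‘CH7’), and the study describes hybrid weakness, that is poor growth of the F1 plant, in all of them. All lines were untreated, the direction of each cross is not given in the labels, and of the biological replicates per line 2 were analysed here. The question asked of these genes was how each hybrid stood against its parents, and how the parents differed among themselves.

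Cytokinins are adenine-derived hormones that promote cell division in the shoot meristem and the outgrowth of tiller buds, restrain root growth and delay leaf senescence. LOG enzymes release the active free base from its nucleotide, and CKX enzymes degrade it irreversibly. Membrane-bound histidine kinases bind the hormone and pass a phosphate through AHP proteins to response regulators in the nucleus. There the type-B regulators, which are transcription factors, switch on target genes, among them the type-A regulators, whose transcripts respond quickly to cytokinin and whose proteins dampen the signal. Type-C regulators resemble type-A regulators but are not induced by the hormone in the same way.

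Values are log2 of the intensity, on which a difference of 1 is 2-fold, and a level of 1 gene was not set against that of another because probes differ in brightness. Replicate arrays correlated at r = 0.966 to 0.984 over all probe sets. For 7 of the 12 arrays the closest array was the replicate of the same line, and for 5 it was an array of another line. Replicate 2 of ‘CH7/8’ and replicate 1 of ‘CH8/9’ were each other's closest array at r = 0.984. Of the 38 genes, 8 had a mean below the average lower quartile of the arrays (2.31) and are called dim, while 14 lay above the average upper quartile (5.39). Marker genes of leaf, root, shoot meristem, panicle, dividing cells and endosperm were read beside them, because in whole plants fewer cells of a type and less RNA per cell cannot be told apart. All 5 leaf markers were above the lower quartile, whereas 6 of 14 root markers lay below it.

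The heat map of the 38 genes showed few steps that ran along lines rather than single arrays. The median gene had a range of line means of 0.67 and a within-line SD of 0.27, against 0.55 and 0.22 over all 23837 genes. The range reached 2-fold for 12 of the 38 genes (31.6%) and for 22% of all genes. At a Benjamini-Hochberg adjusted p of at most 0.05 and a range of at least 2-fold, limma's F test over the 6 lines called 1 of the 38, the cytokinin receptor HK3, where 2.68% of all genes were called. Between hybrids and parents none of the 38 was called in any comparison, and between parents 1 was called, LOGL7 in ‘CH8’ against ‘CH7’.

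**Figure D1:**
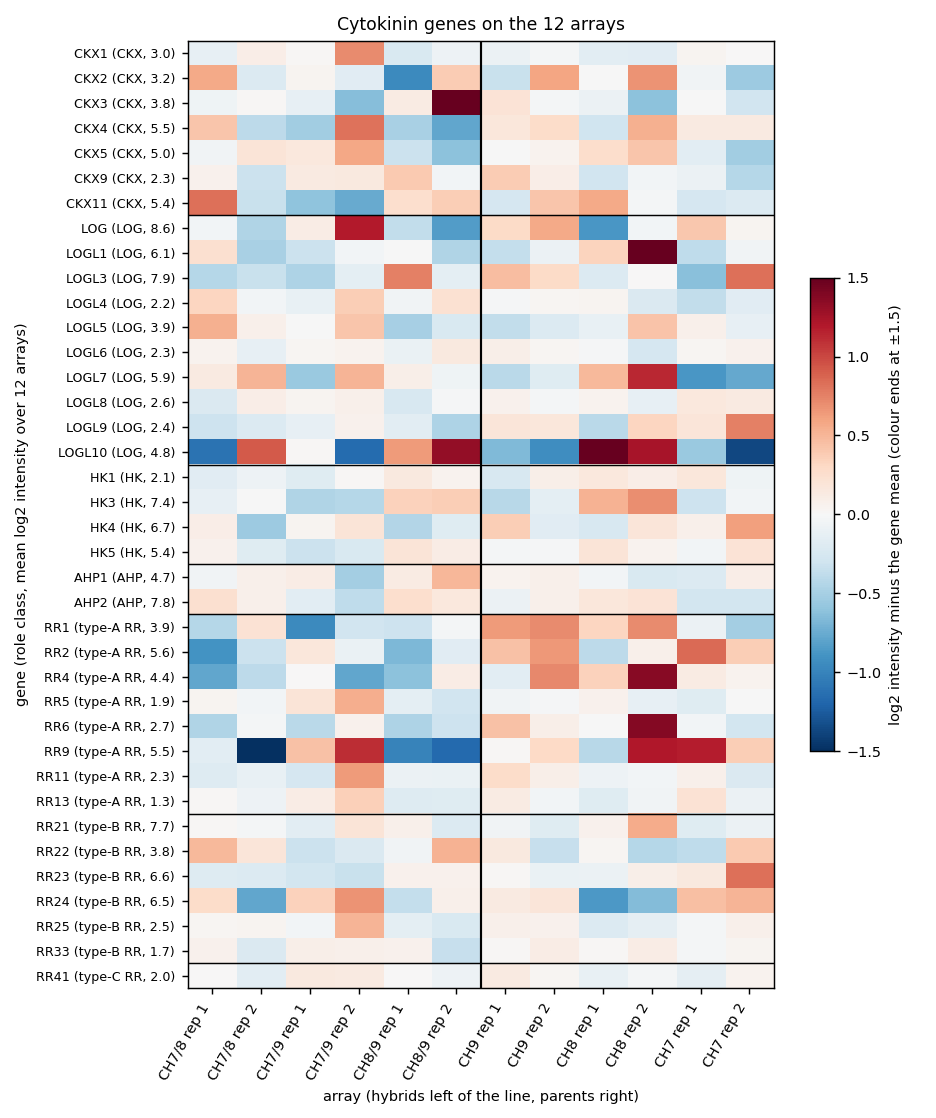
Log2 intensity of each of the 38 genes (rows, by role, with the gene's mean over 12 arrays in brackets) minus that mean, on each array (columns, hybrids left of the line and parents right); the colour ends at 1.5 either way. LOGL10 was high in both ‘CH8’ arrays (6.47 and 6.04), and the type-A regulators RR1, RR2 and RR4 were mostly below their means in hybrids and above them in parents.

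The activating enzymes held the widest range of line means of all 38 genes and the called difference between parents. LOGL7 read 5.54 and 5.76 in ‘CH9’, 6.43 and 7.07 in ‘CH8’, and 5.07 and 5.18 in ‘CH7’. The ‘CH8’ arrays were the highest parental arrays and did not overlap either other parent. Such gaps between parents, with 2 arrays each, were common among the 38 genes. In ‘CH8’ against ‘CH7’ 12 were higher and 8 lower without overlap, and in ‘CH9’ against ‘CH8’ 13 were higher and 10 lower. The share of all genes is not given for these gaps. LOGL7 was higher in ‘CH8’ than in ‘CH7’ by 1.63 (SE 0.33, adjusted p = 0.0304, limma with Benjamini-Hochberg adjustment). In that comparison 2.82% of all genes were called higher and 5.5% in either direction. The call did not survive the loss of either ‘CH7’ array or of replicate 2 of ‘CH8’ (adjusted p = 0.108 to 0.171), nor that of a single array of ‘CH9’ or ‘CH8/9’ (0.0504 and 0.0503), while the difference remained between 1.29 and 1.95 under every alternative. In the hybrids LOGL7 read 6.08 and 6.45 in ‘CH7/8’, 5.39 and 6.45 in ‘CH7/9’, and 6.03 and 5.88 in ‘CH8/9’, which placed ‘CH7/8’ and ‘CH8/9’ between their parents.

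LOGL10 varied most among the lines. It read 3.70 and 5.72 in ‘CH7/8’, 4.82 and 3.65 in ‘CH7/9’ and 5.45 and 6.12 in ‘CH8/9’, against 4.14 and 3.87 in ‘CH9’, 6.47 and 6.04 in ‘CH8’, and 4.25 and 3.44 in ‘CH7’. Both ‘CH8’ arrays were the highest of the parents, and of the hybrids with ‘CH8’ as a parent both ‘CH8/9’ arrays and 1 of the ‘CH7/8’ arrays were high. The difference between ‘CH8’ and ‘CH7’ was 2.42 (SE 0.63) and missed the threshold at an adjusted p of 0.0669, and that between ‘CH9’ and ‘CH8’ was -2.26 (adjusted p = 0.238, limma). LOGL1 averaged 7.08 ± 0.90 in ‘CH8’, where 1 array read 7.72 and the other 6.44, and between 5.88 and 5.99 in the other 5 lines. Its difference between ‘CH8’ and ‘CH7’ was 1.19 (adjusted p = 0.133, limma).

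The loss of LOG itself leads to early termination of the shoot and panicle meristem in rice. LOG read 8.55 and 8.14 in ‘CH7/8’, 8.70 and 9.78 in ‘CH7/9’ and 8.22 and 7.75 in ‘CH8/9’, against 8.87 and 9.16 in ‘CH9’, 7.71 and 8.54 in ‘CH8’, and 8.99 and 8.63 in ‘CH7’. Lines with ‘CH8’ in their pedigree had the 3 lowest means, and their arrays (8.55 at most) lay just below all arrays of the other lines (8.63 at least). The F test over lines gave an adjusted p of 0.312, and how many of all genes split in this way was not counted. Of the other LOGL genes, LOGL4, LOGL6, LOGL8 and LOGL9 stayed between 1.87 and 3.13 on every array. LOGL9 was lower in hybrids than in parents by 0.40 at an unadjusted p of 0.0259, but its adjusted p was 0.940 in limma and its line means were below the lower quartile in 2 of the hybrids, ‘CH7/8’ (2.12) and ‘CH8/9’ (2.07).

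**Figure D2:**
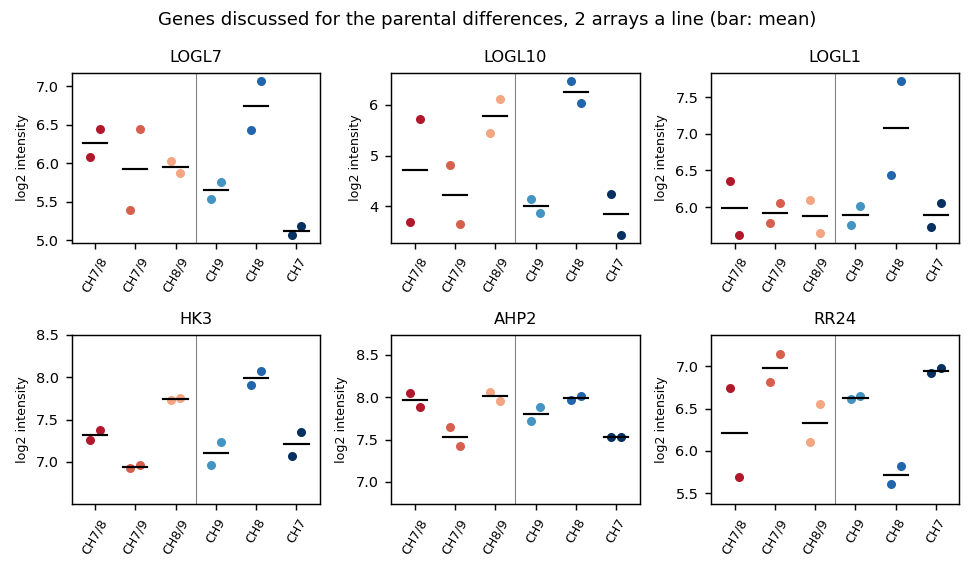
Log2 intensity of LOGL7, LOGL10, LOGL1, HK3, AHP2 and RR24 by line (hybrids left of the vertical line, parents right); points are the 2 arrays of a line and bars their mean. LOGL7, LOGL10, LOGL1 and HK3 had their highest line mean in ‘CH8’, and RR24 its lowest (5.71).

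Among the degrading enzymes no gene was called in any comparison. CKX4 had a mean of 5.48 over the 12 arrays, and its hybrids ran from 4.70 to 6.30 with a median of 5.04, against parents from 5.18 to 6.01 with a median of 5.63. Both ‘CH8/9’ arrays (5.0 and 4.70) lay below all 4 arrays of its parents, and the mid-parent difference there was -0.80 (adjusted p = 0.689, limma), where the mid-parent is the mean of the parents' log2 means. CKX2, known as Gn1a and as a locus that sets grain number in rice, had the widest spread within lines of its class, an SD of 0.58, with 2.23 and 3.57 on the ‘CH8/9’ arrays. A second probe set of CKX2 had a lower mean, 2.98 against 3.19.

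CKX5 had opposite positions in the hybrids that share the parent ‘CH9’, as had the dim type-A regulator RR5. CKX5 read 5.13 and 5.55 in ‘CH7/9’ and 4.65 and 4.36 in ‘CH8/9’, against 4.97 and 5.02 in ‘CH9’, 5.24 and 5.39 in ‘CH8’, and 4.81 and 4.45 in ‘CH7’. Both ‘CH7/9’ arrays were above all arrays of that hybrid's parents, and both ‘CH8/9’ arrays below all arrays of theirs. The mid-parent differences were 0.53 (SE 0.17) in ‘CH7/9’ and -0.65 (SE 0.17) in ‘CH8/9’. The test of ‘CH7/9’ against ‘CH8/9’ on those differences gave 1.17 (SE 0.22, unadjusted p = 0.000567, adjusted p = 0.149, limma), so it was not called, and 0.00839% of all genes were. Without replicate 1 of ‘CH7/9’ it passed the threshold, but that fit leaves the line 1 array, and many more of all genes passed there as well. ‘CH9’ enters both mid-parents.

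CKX3 and CKX11 gave the other distant values, and both rested on few arrays. CKX3 read 3.96 and 5.34 in ‘CH8/9’, against 4.04 and 3.80 in ‘CH9’ and 3.75 and 3.22 in ‘CH8’, which put the hybrid 0.95 above its mid-parent (SE 0.34, adjusted p = 0.644, limma) with 1 array inside the parental range. Without replicate 2 of ‘CH8/9’ the difference was 0.26, and without its replicate 1 it was 1.64. CKX11, which in rice has been tied to leaf senescence, read 4.75 and 4.60 in ‘CH7/9’, against 5.11 and 5.77 in ‘CH9’ and 5.11 and 5.15 in ‘CH7’. Those hybrid arrays did not overlap the parents, and the mid-parent difference was -0.61 (SE 0.32, adjusted p = 0.575). CKX1 and CKX9 stayed between 1.87 and 3.71.

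The receptor HK3 was the gene that separated the lines most clearly relative to its replicate spread. It read 7.26 and 7.38 in ‘CH7/8’, 6.93 and 6.96 in ‘CH7/9’, and 7.73 and 7.75 in ‘CH8/9’, against 6.97 and 7.24 in ‘CH9’, 7.91 and 8.08 in ‘CH8’, and 7.07 and 7.35 in ‘CH7’. The ‘CH8’ arrays were the highest of all 12, the ‘CH8/9’ arrays came next, and no array of another line reached them. The range of line means was 1.05 (adjusted p = 0.0428, limma F test). HK3 was higher in ‘CH8’ than in ‘CH7’ by 0.79 (SE 0.16, adjusted p = 0.0278) and lower in ‘CH9’ than in ‘CH8’ by a log2 difference of -0.89 (SE 0.16, adjusted p = 0.0495), both short of 2-fold. ‘CH8/9’ stood 0.63 above ‘CH9’ and ‘CH7/8’ stood at -0.68 against ‘CH8’, with adjusted p of 0.479 and 0.321 in limma. The F test lost its call when any single array outside ‘CH7/8’ was left out (adjusted p = 0.0697 to 0.132). The root markers, 14 genes, summed to an intensity of 901 and 1110 in ‘CH9’, 176 and 202 in ‘CH8’, and 1340 and 1020 in ‘CH7’. Such sums follow the brightest genes. Gene by gene, 9 of the 14 were lower and 5 higher in ‘CH8’ than in ‘CH7’ (median -0.14). In ‘CH9’ against ‘CH8’ 9 were higher and 5 lower (median 0.11). The 6 shoot meristem markers were all lower in ‘CH8’ than in ‘CH7’ (median -0.47). In ‘CH9’ against ‘CH8’ 5 of them were higher and 1 lower (median 0.9). The part of the root and shoot meristem markers in the differences of ‘CH8’ was not tested.

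The other histidine kinases moved little. HK4 read between 6.18 and 6.92 in hybrids with a median of 6.65, against 6.48 to 7.34 in parents with a median of 6.86. HK5 spanned 5.07 to 5.60 over all arrays, and its ‘CH7/9’ arrays (5.07 and 5.16) were below every array of ‘CH9’ and ‘CH7’. All 4 kinases had a negative fitted difference between hybrids and parents, from -0.28 for HK4 to -0.07 for HK1, none of them with an unadjusted p below 0.05. HK1, also named MHZ1, is a histidine kinase of ethylene signalling in rice roots rather than a cytokinin receptor, and it was dim on every array (1.82 to 2.23).

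The phosphotransfer proteins were steady. AHP2 read 8.05 and 7.88 in ‘CH7/8’, 7.65 and 7.42 in ‘CH7/9’ and 8.06 and 7.96 in ‘CH8/9’, against 7.72 and 7.88 in ‘CH9’, 7.97 and 8.01 in ‘CH8’, and 7.53 and 7.53 in ‘CH7’. The 3 lines with ‘CH8’ in their pedigree had the highest means, over a range of 0.48 (adjusted p = 0.208, limma F test). AHP1 read 4.83 and 5.21 in ‘CH8/9’, above all arrays of ‘CH9’ (4.76 and 4.78) and ‘CH8’ (4.66 and 4.48), and was the only one of the 38 genes to do so in that hybrid, where 12% of all genes did. Its mean was 4.71 ± 0.09 in ‘CH7/8’ and 4.51 ± 0.44 in ‘CH7/9’ (SD of 2 arrays).

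The type-A response regulators were the class whose values lay lowest in hybrids relative to parents. Of the 8 measured, 6 had a negative difference, and the class median was -0.56, against 0.02 over all genes and -0.05 over all 38. At an unadjusted p below 0.05, limma gave 7 of the 38 genes as lower in hybrids and 0 as higher, where 1.99% of all genes were lower and 3.24% higher. The 7 were the type-A regulators RR1, RR2, RR4, RR6 and RR9, the type-B regulator RR23 and LOGL9. No adjusted p came below 0.824, so none of these was called, and 0.0168% of all genes were. The class median ran between -0.70 and -0.42 with single arrays left out and between -0.74 and -0.24 over all alternatives.

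RR2 had the smallest p. It read 4.74 and 5.31 in ‘CH7/8’, 5.81 and 5.54 in ‘CH7/9’ and 4.96 and 5.47 in ‘CH8/9’, against 6.07 and 6.29 in ‘CH9’, 5.24 and 5.71 in ‘CH8’, and 6.49 and 6.0 in ‘CH7’. Each hybrid mean was below both of its parents, and in ‘CH7/9’ the arrays of hybrid and parents did not overlap, while the low arrays of ‘CH8’ overlapped those of the hybrids. The difference between hybrids and parents was -0.66 (SE 0.16, unadjusted p = 0.00292, adjusted p = 0.824, limma) and stayed between -0.75 and -0.50 over all alternatives. Between parents RR2 had a log2 difference of -0.77 in ‘CH8’ against ‘CH7’ and of 0.70 in ‘CH9’ against ‘CH8’ (adjusted p = 0.162 and 0.494).

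RR4 and RR6 had hybrid means below both parents in every cross as well. RR4 ran from 3.65 to 4.54 in hybrids with a median of 3.92, against 4.27 to 5.79 in parents with a median of 4.66. The hybrids thus lay lower with an overlap between 4.27 and 4.54, and the difference was -0.82 (SE 0.25, unadjusted p = 0.0102, adjusted p = 0.940). In ‘CH7/8’ both RR4 arrays (3.65 and 4.04) were below all arrays of ‘CH8’ (4.78 and 5.79) and ‘CH7’ (4.55 and 4.48), with a mid-parent difference of -1.06 (SE 0.38, adjusted p = 0.999). RR6 ran from 2.24 to 2.77 in hybrids, against 2.43 to 4.08 in parents. The top parental value came from replicate 2 of ‘CH8’, whose partner read 2.69, and the difference of -0.53 (SE 0.23, unadjusted p = 0.0457) ran from -0.76 to -0.17 over the alternatives.

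RR1 was low in all hybrids but also in 1 of the parents. It read 3.49 and 4.13 in ‘CH7/8’, 2.96 and 3.63 in ‘CH7/9’ and 3.61 and 3.89 in ‘CH8/9’, against 4.56 and 4.63 in ‘CH9’, 4.24 and 4.62 in ‘CH8’, and 3.83 and 3.41 in ‘CH7’. ‘CH7’ lay within the range of the hybrids, while all hybrid arrays were below those of ‘CH9’ and ‘CH8’. The difference between hybrids and parents was -0.60 (SE 0.17, unadjusted p = 0.00617, adjusted p = 0.940, limma), and the mid-parent difference of ‘CH7/8’ was -0.22, that of ‘CH7/9’ -0.82 and that of ‘CH8/9’ -0.76.

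RR9 combined the lowest mid-parent differences with the widest replicate spread among the regulators. It read 5.29 and 3.58 in ‘CH7/8’, 5.89 and 6.56 in ‘CH7/9’ and 4.45 and 4.29 in ‘CH8/9’, against 5.47 and 5.75 in ‘CH9’, 5.04 and 6.65 in ‘CH8’, and 6.63 and 5.82 in ‘CH7’. ‘CH8/9’ lay below all of its parents' arrays and ‘CH7/9’ did not. The mid-parent difference of ‘CH7/8’ was -1.60 (SE 0.54), that of ‘CH7/9’ 0.30 and that of ‘CH8/9’ -1.35 (SE 0.54). The value of ‘CH7/8’ was -0.74 without its replicate 2 and -2.46 without its replicate 1. The test of ‘CH7/8’ against ‘CH7/9’ on those differences gave -1.91 (SE 0.70, unadjusted p = 0.0235, adjusted p = 0.609, limma). RR9 and RR10 are near-identical copies and RR10 has no probe set of its own, so RNA of RR10 may be part of what the RR9 probe set read.

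The remaining type-A regulators, RR5, RR11 and RR13, were dim, with means over the arrays of 1.85, 2.3 and 1.29, and their differences between hybrids and parents were 0.10, -0.03 and 0.01. RR5 stood 0.44 above its mid-parent in ‘CH7/9’ (SE 0.14, unadjusted p = 0.0119, adjusted p = 0.459, limma), where both arrays (2.05 and 2.40) were above those of its parents. In ‘CH8/9’ they nevertheless joined the others. All 8 type-A regulators had a mean below both parents there, as did 29.1% of all genes, and RR1, RR5, RR6, RR9, RR11 and RR13 had both arrays below all 4 parental arrays, as had CKX4 and CKX5, that is 8 of the 38 against 7.3% of all genes. The differences of RR5, RR11 and RR13 there were small, between -0.18 and -0.15. The class median of the mid-parent difference was -0.69 in ‘CH8/9’, -0.36 in ‘CH7/8’ with 7 of 8 below, and -0.04 in ‘CH7/9’ with 4 of 8 below. Over all genes the medians were 0.02, -0.02 and 0.03. With single arrays left out the class median ran from -0.88 to -0.41 in ‘CH8/9’ and from -0.63 to -0.14 in ‘CH7/8’, so both stayed below 0 but their order was not fixed: without replicate 1 of ‘CH8/9’ and replicate 2 of ‘CH7/8’ they were -0.41 and -0.63. In ‘CH7/9’ the class median changed sign with the array left out (-0.24 to 0.16), so no direction is given for that hybrid.

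**Figure D3:**
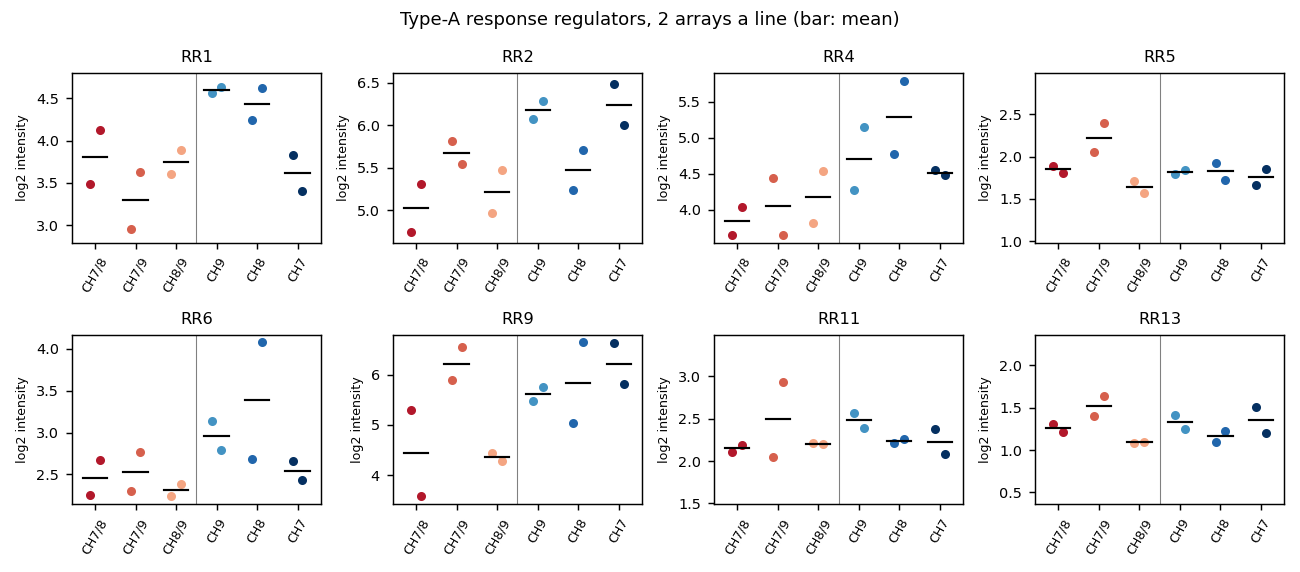
Log2 intensity of the 8 type-A response regulators by line (hybrids left of the vertical line, parents right); points are the 2 arrays of a line and bars their mean, and each panel has its own scale. RR2, RR4 and RR6 had every hybrid mean below both of its parents, whereas RR5, RR11 and RR13 were dim, and RR5 had its highest mean in ‘CH7/9’ (2.23) and its lowest in ‘CH8/9’ (1.64).

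**Figure D4:**
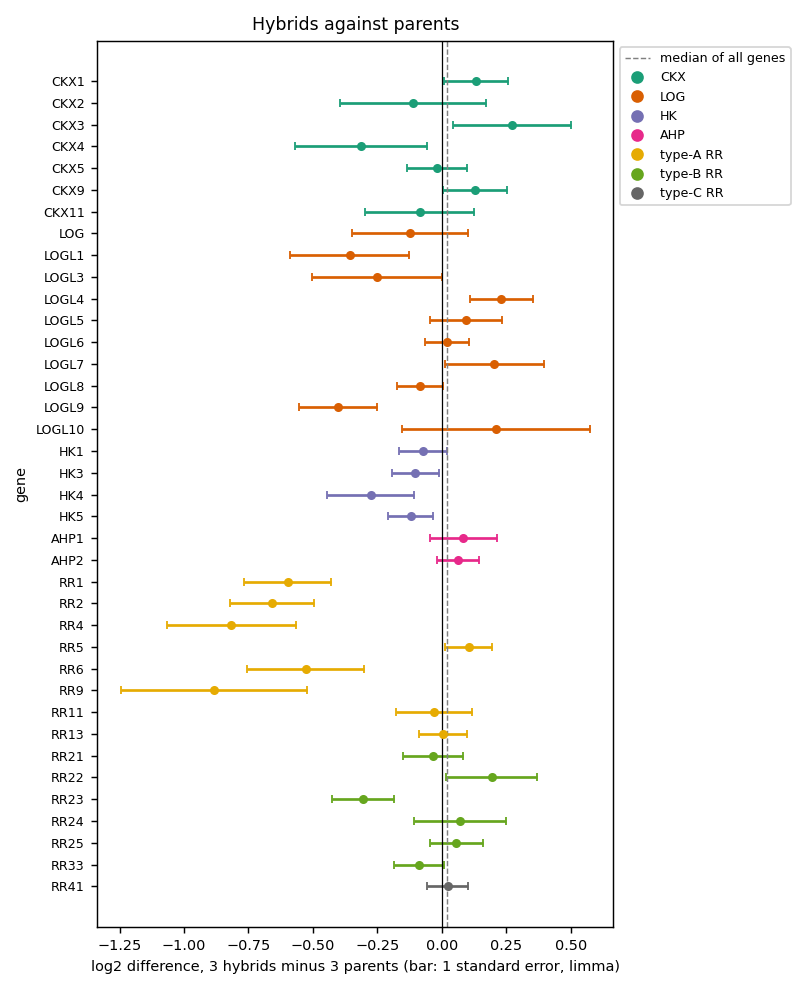
Fitted log2 difference of the 3 hybrids minus the 3 parents for each of the 38 genes, coloured by role, with bars of 1 standard error from limma; the dashed line is the median of all genes (0.02). RR9 (-0.88), RR4 (-0.82), RR2 (-0.66), RR1 (-0.60) and RR6 (-0.53) were the 5 lowest, and no gene was called.

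Markers of tissue also differed between these plants. All 13 markers of dividing cells had a positive difference between hybrids and parents, with a median of 0.25 and 0 called. Against the mid-parent 12 were above in ‘CH7/8’ and 13 in ‘CH8/9’, but 6 above and 7 below in ‘CH7/9’ (median -0.005). They summed to an intensity of 288 to 697 in hybrids, both ends from the ‘CH7/8’ arrays, against 232 to 465 in parents. The 5 leaf markers summed to 292 and 366 in ‘CH8/9’ and to 1070 and 978 in ‘CH7/9’, against 491 to 751 in parents. The 14 root markers summed to 321 to 1250 in hybrids, against 176 to 1340 in parents, and 9 of them had a positive and 5 a negative difference (median 0.07). Positive differences were also had by 11 of 13 panicle and flower markers (median 0.19), 4 of 6 shoot meristem markers (0.14) and 6 of 8 endosperm markers (0.06). Of the 5 leaf markers 2 were above and 3 below (median -0.12). The part of these tissue differences in the values of the type-A regulators was not tested.

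The type-B regulators, the transcription factors of the pathway, had no common direction, with 3 of 6 above and 3 below between hybrids and parents and a median of 0.01. RR21 ran from 7.49 to 7.89 in hybrids and from 7.51 to 8.25 in parents. RR24 had the widest range of its class. It read 6.74 and 5.69 in ‘CH7/8’, 6.82 and 7.14 in ‘CH7/9’ and 6.11 and 6.55 in ‘CH8/9’, against 6.61 and 6.65 in ‘CH9’, 5.61 and 5.82 in ‘CH8’, and 6.92 and 6.98 in ‘CH7’. ‘CH8’ was the lowest parent without overlap and both of its hybrids spread between their parents. Of the 38 genes, 8 were lower in ‘CH8’ than in ‘CH7’ without overlap and 13 were higher in ‘CH9’ than in ‘CH8’. The difference of ‘CH8’ against ‘CH7’ was -1.24 (SE 0.31, adjusted p = 0.0576, limma) and so just missed the threshold.

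RR23 was low in the hybrids of ‘CH7’. It read 6.37 and 6.36 in ‘CH7/8’ and 6.29 and 6.23 in ‘CH7/9’, against 6.59 and 6.47 in ‘CH9’, 6.48 and 6.66 in ‘CH8’, and 6.72 and 7.40 in ‘CH7’, and those hybrid arrays were below all of their parents' arrays. In ‘CH8/9’ both arrays read 6.63. The difference over all hybrids was -0.31 (SE 0.12, unadjusted p = 0.0306, adjusted p = 0.940, limma). RR22 read 4.33 and 4.02 in ‘CH7/8’, against 3.87 and 3.42 in ‘CH8’ and 3.46 and 4.23 in ‘CH7’, and its mid-parent difference of 0.43 (SE 0.27, adjusted p = 0.999) was the highest in that hybrid. RR25 and RR33, and RR41 of type C, stayed between 1.40 and 2.98, and a second probe set of RR25 averaged 1.93 against 2.47. RR33 is placed with type B by its number alone, and a synonym of it, OsRRA19, follows the naming of type-A genes.

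Hybrid by hybrid, the genes outside the parental range were counted beside the share of all genes. In ‘CH7/8’, HK1, RR4 and RR23 had both arrays below all 4 parental arrays (3 of 38, against 4.48% of all genes) and 0 genes had both above (3.08%). In ‘CH7/9’, CKX5, RR5 and RR41 were above (3 of 38, against 9.66%) and CKX11, LOGL9, HK3, HK5, RR2 and RR23 below (6 of 38, against 6.42%). In ‘CH8/9’, AHP1 alone was above (1 of 38, against 12%) and the 8 genes named before were below (7.3%). Across all 12 arrays no gene had its 6 hybrid arrays all above or all below the 6 parental arrays, as 0.0839% and 0.0336% of all genes did.

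Against the mid-parent 0 of the 38 genes were called in each hybrid, where the share of all genes called was 0.0126% for ‘CH7/8’, 0.0042% for ‘CH7/9’ and 0.0294% for ‘CH8/9’. At an unadjusted p below 0.05, 4 genes were lower and 0 higher in ‘CH7/8’ (2.35% and 2.08% of all genes), 3 lower and 2 higher in ‘CH7/9’ (2.93% and 6.05%), and 5 lower and 1 higher in ‘CH8/9’ (2.92% and 5.23%). RR2 was among the lower genes in ‘CH7/8’ and ‘CH8/9’, RR9 likewise, RR1 in ‘CH7/9’ and ‘CH8/9’, RR4 in ‘CH7/8’ and RR6 in ‘CH8/9’. The lower genes outside type A were RR23 in ‘CH7/8’ and ‘CH7/9’, HK5 in ‘CH7/9’ and CKX5 in ‘CH8/9’. These comparisons share parents, so their values are given side by side only. Against single parents 0 of the 38 were called in all 6 comparisons. Of all genes 0.331% were called in ‘CH7/8’ against ‘CH7’ and 0.138% against ‘CH8’, 0.0629% in ‘CH7/9’ against ‘CH7’ and 0.0461% against ‘CH9’, and 0.155% in ‘CH8/9’ against ‘CH8’ and 0.0755% against ‘CH9’. The tests of 1 hybrid's mid-parent difference against another's called 0 of the 38 as well, where 0.0294% of all genes were called between ‘CH7/8’ and ‘CH7/9’ and 0.0042% between ‘CH7/8’ and ‘CH8/9’. RR2 in ‘CH7/8’ against ‘CH7’ (-1.22, adjusted p = 0.172) and RR1 in ‘CH7/9’ against ‘CH9’ (-1.30, adjusted p = 0.185) had the lowest p of the type-A regulators there.

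**Figure D5:**
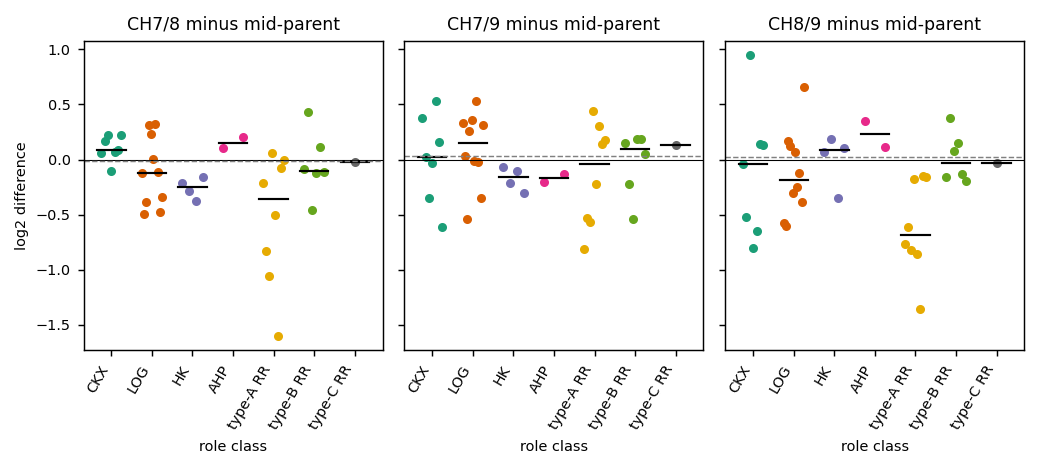
Log2 difference of each hybrid from its mid-parent for the 38 genes, by role; points are genes, short bars the class medians and the dashed line the median of all genes. The type-A regulators had a median of -0.36 for ‘CH7/8’, of -0.04 for ‘CH7/9’ and of -0.69 for ‘CH8/9’, and CKX3 in ‘CH8/9’ was the highest point (0.95).

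The parents were compared in 3 pairs. At an unadjusted p below 0.05, 7 of the 38 were higher in ‘CH8’ (CKX5, LOGL1, LOGL7, LOGL10, HK3, AHP2 and RR1) and 3 lower (RR2, RR23 and RR24) than in ‘CH7’, where 10.8% of all genes were higher and 15.2% lower, so that the share of the 38 (10 genes) was close to that of all genes (26%). In ‘CH9’ against ‘CH7’, CKX9 and RR1 were higher and RR23 lower by the same rule (5.32% and 7.36% of all genes), with 0 called (0.461%). RR1 differed by 0.98 there (SE 0.29, adjusted p = 0.231, limma). In ‘CH9’ against ‘CH8’, LOG, RR2 and RR24 were higher and LOGL1, LOGL7, LOGL10 and HK3 lower (6.5% and 6.13%), again with 0 called (0.717%).

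The genes next to this pathway were taken from a list of 51 names of transporters, conjugating enzymes, pseudo-regulators and meristem factors. Of 15 genes matched 14 were measured, mostly pseudo-regulators and meristem factors. No transporter or conjugating enzyme of the list matched, so those steps were not covered. Between hybrids and parents 10 of the 14 were above and 4 below, with a median of 0.19 and 0 called. At an unadjusted p below 0.05, where 3.24% of all genes were higher and 1.99% lower, 4 of the 14 were higher and 0 lower: the pseudo-phosphotransfer gene PHP2 (0.47, SE 0.12) and the clock pseudo-response regulators PRR73 (0.36, SE 0.10), PRR37 (0.44, SE 0.18) and PRR95 (0.56, SE 0.16). Their adjusted p lay between 0.871 and 0.940 in limma. In ‘CH8’ against ‘CH7’ limma called 3 of the 14 higher, where 2.82% of all genes were called higher, PRR73 by 1.05 (adjusted p = 0.0135), PRR95 by 1.25 (adjusted p = 0.0375) and WOX11, which promotes crown root growth, by 1.12 (adjusted p = 0.0450).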

How the data were processed

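The deposited table holds linear intensity values of 12 Affymetrix arrays as the authors made them. The methods describe RMA with quantile normalization and background subtraction, while the submitters' notes name MAS5. The values ran from 1.58 to 4035 with array medians of 10.92 to 12.45, and log2 was taken without a pseudocount or further normalization. Probe sets were named from the platform annotation (24080 with 1 gene, 95 with several and 30747 with none of 54922), and the brightest probe set over 12 arrays stood for a gene. The number of arrays limits the precision.

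A mean per line was fitted over all probe sets with limma 3.58.1 in R 4.3.3, with eBayes and Benjamini-Hochberg adjustment, so that all lines share 1 estimate of the spread between arrays. Calls needed an adjusted p of at most 0.05 and 2-fold. SAM, named in the methods, was not run, because with 2 arrays a line it has too few permutations. The fit was tested on simulated data. Genes named with full values were those called, those with the highest mean or widest range of their class, and the 2 farthest on either side of the mid-parent in each hybrid. LOGL1, LOGL9, CKX2, HK4, HK5, RR5 and RR23 and the marker sums were added after their values were seen. Members and lists were chosen with earlier results of these data known. Replicate numbers did not pair the arrays. The sequences of the genes are not used here.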

Additional observations from a re-analysis of the deposited data

How the results depend on the processing

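Over 25 alternatives at most, 1871 values were recomputed. The alternatives were quantile normalization, median centring, pseudocounts of 1 and 16, all probe sets of a gene averaged and array weights. Others were a mean-dependent spread, the compared lines alone, other thresholds, a replicate block and single arrays left out. Another left out all probe sets with a mean below the median of all probe sets, a stricter cut than that for dim genes. Of the values, 1799 stayed on their side of the threshold or, where untested, within the spread between replicates. Of the rest, 23 lost and 4 gained a call, and 45 moved. Tested differences changed sign 0 times, whereas list medians, over the 38 genes or the type-A regulators, did so in 32 values of 14 medians, among them that of the type-A regulators in ‘CH7/9’. Without the probe sets below the overall median, which left only RR1, RR2, RR4 and RR9 of the class, the type-A median was -0.95 in ‘CH7/8’ against the mid-parent. With a pseudocount of 16 the type-A median was -0.34 in ‘CH8/9’. For ‘CH8’ against ‘CH7’, 1 of the 38 genes was called, and 1312 of all genes. By adjusted p alone or at 1.5-fold 2 were called (LOGL7 and HK3), with 1669 and 1666 of all genes. Without the probe sets below the overall median 3 were called, and 3 with array weights (LOGL7, LOGL10 and RR24 each time), with 1288 of the remaining genes and 1484 of all genes. A pseudocount of 16 gave 0, with 583 of all genes. Leaving out single arrays, which leaves a line 1 array, both lost and gained calls, and the number of all genes called shifted as well. With only ‘CH8’ and ‘CH7’ fitted, LOGL7 lost its call (adjusted p = 0.0608 for LOGL7 in limma) and RR24 was called in its place. For ‘CH9’ against ‘CH8’, HK3 was the 1 gene of the 38 called by adjusted p alone or at 1.5-fold, with 179 of all genes each time, against 171 at 2-fold. Over the 6 lines, where 638 of all genes were called, 0 of the 38 were called with a pseudocount of 16 and 0 with array weights (272 and 631 of all genes). Leaving out single arrays mostly lost the call of HK3. LOGL10 and RR24 joined it without either ‘CH7/8’ array, where more of all genes were called too. Single arrays left out brought RR24 past the threshold in ‘CH7/8’ against ‘CH7’ (without replicate 1 of ‘CH7/8’) and RR6 in ‘CH8/9’ against ‘CH8’ (without replicate 1 of ‘CH8’). CKX5 passed it in the mid-parent difference of ‘CH7/9’ against that of ‘CH8/9’ (without replicate 1 of ‘CH7/9’). In each of these fits a line had 1 array, and more of all genes passed than with all arrays. Leaving out replicate 2 of ‘CH7/8’ and replicate 1 of ‘CH8/9’ together, an alternative chosen after seeing the data, left those lines with 1 array each. LOGL7 then lost its call in ‘CH8’ against ‘CH7’, LOGL10 and RR24 gained one, and HK3 lost its call over the 6 lines. The number of all genes called changed as well. The causes were not tested.

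Deviations of same-numbered arrays correlated between lines at -0.333 to 0.204, over 0.1 for 2 of 15 pairs of lines, so the numbers do not pair the arrays. With the replicate number as a block, ‘CH8’ against ‘CH7’ and the 6 lines kept 1 call each and every other comparison 0, and no call changed.

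With 2 arrays a line the number of arrays limits the precision. The standard error of a difference between parents was 0.16 for HK3 and 0.63 for LOGL10, and the 8 dim genes carry little signal. The SD between replicates over all probe sets was highest in ‘CH7/8’ (0.38), against 0.26 in ‘CH9’.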
